A study of Mus musculus with 9 samples.

Results

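Tnfrsf19, Mid2, Edil3, Adgrf5, Pdlim1 and Hs3st3a1, which had a lower signal after Runx2 depletion and do not belong to the classical mineralization genes, were followed across osteoblast differentiation. They are 6 of the 19937 genes analysed. The 6 were chosen because they were among the genes with the lowest day 9 signal in shRunx2 relative to Scr cells, so that difference is given for them as a description and without a test. Ordered by lower signal in shRunx2 cells, they held ranks 4 to 9 among these analysed genes, whose probe sets carry 1 gene symbol. Genes on other probe sets were not ranked. The paper's own list of lower genes for this contrast also holds H19, Bglap2 and C87414, which have none of these ranks. Mid2, at rank 4, differed by -1.04 on the log2 scale, and Mmp13 just above it at rank 3, a collagenase of bone and cartilage, by -1.11. Hs3st3a1, at rank 9, differed by -0.82, and Id3 just below it at rank 10, an inhibitor of helix-loop-helix factors, by -0.80.

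Runx2 is the transcription factor on which commitment to the osteoblast lineage depends, and it binds DNA through its Runt domain at a short core sequence. During differentiation, preosteoblasts leave the proliferative state, deposit a collagenous matrix and later mineralize it. The 6 genes act at other points of the cell. Tnfrsf19 (also known as TROY) belongs to the TNF receptor superfamily and is linked to Wnt signaling, and Adgrf5 (GPR116) is an adhesion G protein-coupled receptor best known from lung surfactant control and from endothelium. Edil3 (Del-1) is a secreted matrix protein that binds integrins through an RGD sequence. Hs3st3a1 is a Golgi enzyme that adds a 3-O-sulfate to heparan sulfate, Mid2 is a microtubule-associated ubiquitin ligase of the TRIM family, and Pdlim1 is a PDZ and LIM domain adaptor that binds alpha-actinin on actin stress fibers.

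The cells were MC3T3-E1 subclone 4, a preosteoblast line from mouse calvaria, infected with lentivirus carrying either a scrambled shRNA (Scr) or an shRNA against Runx2 (shRunx2) and sorted for GFP. The 9 arrays held 3 groups of 3 biological replicates: Scr cells while proliferating (day 0), Scr cells after 9 days in osteogenic medium with ascorbic acid and beta-glycerophosphate (day 9), and shRunx2 cells after the same 9 days. There was no shRunx2 group at day 0, all groups came from 1 subclone, and 1 hairpin was used, so an effect of the hairpin on day 0 cells or away from its target cannot be told apart from a day 9 effect. The signal of Runx2 itself was not analysed here, so these values do not check the depletion.

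Values are RMA levels on the log2 scale, in which a difference of 1 is a doubling, and they ranged from 3.68 to 14.48. Arrays of the same group correlated at 0.9981 or more and arrays of different groups at 0.9969 or less. Osteoblast markers averaged 11.06 to 11.16 on the day 0 arrays, 11.48 to 11.57 in Scr at day 9 and 11.35 to 11.38 in shRunx2 (7 of 10 listed genes analysed). Alpl, Sp7 and Dmp1 rose by 1.39, 1.05 and 0.31 with differentiation, and Col1a1, Col1a2, Dlx5 and Sparc did not pass. The means of 10 endothelial markers (8.01 to 8.09), 8 macrophage markers (7.64 to 7.79) and 10 muscle markers (9.19 to 9.30) moved by less than 0.2 between arrays, although the single genes Flt1, Lyz2 and Smtn passed the test for both differentiation and knockdown, and Ckm and Cd14 for differentiation. After knockdown, Flt1 passed in 17 of 17 alternative settings, Lyz2 in 11 of 16 and Smtn in 12 of 17. A change in RNA per cell and a change in the share of cells that express a gene cannot be told apart in these bulk samples.

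The RefSeq promoter table (build GRCm38.p6) held 7 start sites of 5 of the 6 genes, all but Edil3. The 250 bases before and 50 bases after each start were searched for the Runx core, TGTGGT or its variant TGCGGT, on both strands. Only Mid2 held a match. TGTGGT lay 18 to 13 bases before its start and TGCGGT 10 to 5 bases before it, both on the sense strand and not overlapping. The core was present in 22.4% of all 32851 promoters of the same length and in 25.0% of all genes with a promoter, against 1 of 5 genes here (20.0%), so its frequency in the set was near the background. The longer TGTGGTT was in 5.27% of all promoters and in 0 of the 7. The stretches of 250 bases before the start are shown for Mid2 because it carries the matches (in capitals), for Tnfrsf19 because its signal changed most with differentiation and it has a pair of annotated starts, and for Pdlim1 and Hs3st3a1 because they differ from the others in their course. They lie at chrX:140664706-140664955 (plus strand) for Mid2, chr14:61046856-61047105 and chr14:61037988-61038237 (minus strand) for the upstream and downstream starts of Tnfrsf19, chr19:40271617-40271866 (minus strand) for Pdlim1 and chr11:64435082-64435331 (plus strand) for Hs3st3a1, each written 5′ to 3′ in the direction of its gene.
Mid2: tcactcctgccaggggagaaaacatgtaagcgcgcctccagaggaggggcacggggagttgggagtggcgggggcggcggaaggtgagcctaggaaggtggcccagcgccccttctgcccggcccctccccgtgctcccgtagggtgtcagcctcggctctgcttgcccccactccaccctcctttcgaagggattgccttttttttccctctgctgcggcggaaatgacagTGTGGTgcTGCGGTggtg
Tnfrsf19, upstream start: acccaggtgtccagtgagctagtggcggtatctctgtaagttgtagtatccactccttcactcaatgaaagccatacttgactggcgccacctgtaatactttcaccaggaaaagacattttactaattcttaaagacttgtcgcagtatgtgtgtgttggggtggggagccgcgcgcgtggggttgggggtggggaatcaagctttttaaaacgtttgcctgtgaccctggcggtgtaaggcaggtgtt
Tnfrsf19, downstream start: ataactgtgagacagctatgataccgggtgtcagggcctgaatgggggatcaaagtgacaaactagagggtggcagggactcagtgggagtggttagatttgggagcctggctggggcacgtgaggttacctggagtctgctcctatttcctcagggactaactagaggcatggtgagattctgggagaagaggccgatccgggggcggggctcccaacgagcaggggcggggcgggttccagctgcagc
Pdlim1: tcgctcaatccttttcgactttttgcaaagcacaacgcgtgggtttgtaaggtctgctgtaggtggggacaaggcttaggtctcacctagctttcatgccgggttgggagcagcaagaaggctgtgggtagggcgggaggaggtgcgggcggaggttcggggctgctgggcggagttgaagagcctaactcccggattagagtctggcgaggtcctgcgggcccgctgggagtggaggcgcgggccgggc
Hs3st3a1: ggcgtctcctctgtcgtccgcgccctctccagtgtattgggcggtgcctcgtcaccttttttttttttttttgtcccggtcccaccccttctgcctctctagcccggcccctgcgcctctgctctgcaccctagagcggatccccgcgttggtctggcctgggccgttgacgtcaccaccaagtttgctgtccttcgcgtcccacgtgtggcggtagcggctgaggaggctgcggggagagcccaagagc
GC made up 63.3% of the Mid2 window of 300 bases, 51.0% and 60.7% of the 2 Tnfrsf19 windows, 65.7% of that of Pdlim1 and 65.3% of that of Hs3st3a1, compared with 52.7% over all promoters. The 2 windows of Adgrf5 had 54.3% and 47.3% GC. No match in these windows says only that the letters are not there. Binding of Runx2 was not examined here. For Tnfrsf19, the paper reports Runx2 occupancy by ChIP-Seq at the promoter and in introns, increasing as the cells differentiate.

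To ask how the 6 genes behave in normal differentiation, Scr day 9 was compared with Scr day 0. To set the Runx2-depleted cells beside that course, shRunx2 day 9 was compared with the same Scr day 0 arrays. As shRunx2 cells were not measured at day 0, their own change with differentiation is unknown. A constant shift by the hairpin and a smaller rise cannot be told apart. The genes followed 3 courses. Tnfrsf19, Edil3 and Adgrf5 rose with differentiation, and in shRunx2 cells lay between the Scr day 0 and Scr day 9 levels. Mid2 rose as well, but in shRunx2 cells lay below its day 0 level. Pdlim1 and Hs3st3a1 did not pass the test between day 0 and day 9 in Scr cells and lay below Scr day 0 in shRunx2 cells. By 1.5-fold or more, at an adjusted p under 0.05, 4 of the 6 were higher at day 9 than at day 0, compared with 2.89% of all genes in that direction. Between shRunx2 day 9 and Scr day 0, 3 of the 6 were higher and 3 lower at an adjusted p under 0.05, against 13.8% and 20.4% of all genes. These counts do not stand apart from the choice of the genes, because the first comparison shares its day 9 arrays and the second its shRunx2 arrays with the contrast on which they were chosen.

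**Figure D1:**
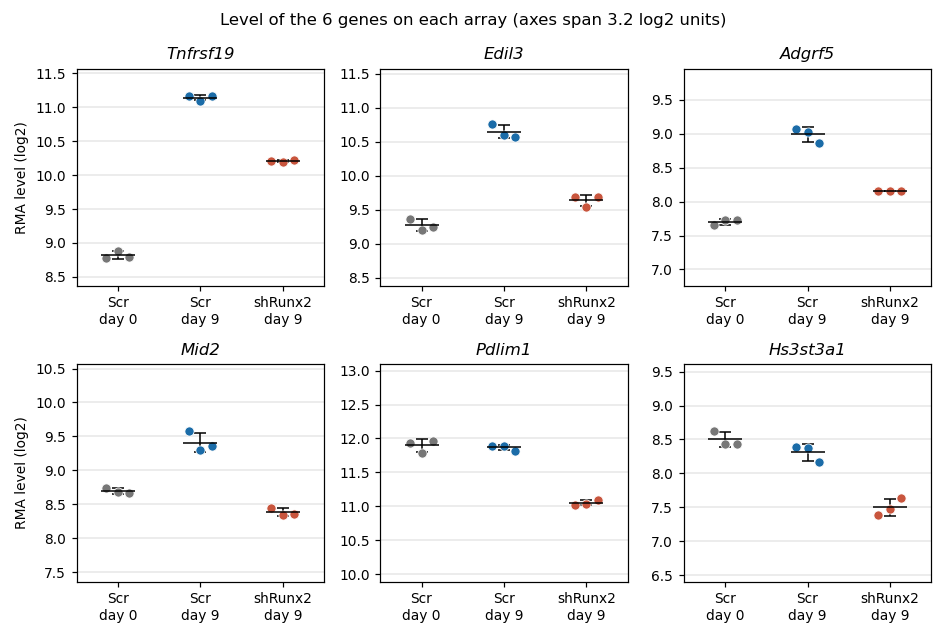
RMA level (log2) of the 6 genes on each of the 9 arrays, with the group mean and SD as bars (n = 3) and every vertical axis spanning 3.2 log2 units. In all 6 panels the shRunx2 arrays lie below the Scr day 9 arrays. In the upper row they lie above Scr day 0, and in the lower row they lie below it.

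Tnfrsf19 showed the widest change of the 6. Its level was 8.78, 8.88 and 8.79 on the day 0 arrays, 11.16, 11.09 and 11.16 in Scr at day 9, and 10.21, 10.20 and 10.23 in shRunx2 at day 9. The 3 groups were separate, with 2.21 between the nearest day 0 and Scr day 9 arrays. The rise with differentiation was 2.32 ± 0.040 (SE), or 5.00-fold (limma, adjusted p = 8.94e-12). In shRunx2 cells the gene was 1.40 ± 0.040 above Scr day 0, or 2.64-fold (limma, adjusted p = 3.58e-10), which equals 60.2% of the log2 rise in Scr cells. The description of the day 9 difference is 1.90-fold lower in shRunx2 than in Scr cells, from a mean of 11.14 ± 0.039 to one of 10.21 ± 0.017 (SD, n = 3).

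Edil3, the integrin ligand, was at 9.37, 9.20 and 9.25 on the day 0 arrays, at 10.76, 10.60 and 10.57 in Scr at day 9, and at 9.69, 9.54 and 9.69 in shRunx2. The shRunx2 arrays lay close to day 0, with a gap of 0.17 between the nearest arrays. It rose by 1.37 ± 0.063 (SE) with differentiation, or 2.59-fold (limma, adjusted p = 1.84e-08). In shRunx2 cells it lay 0.37 ± 0.063 above Scr day 0, or 1.29-fold (limma, adjusted p = 0.000695), which equals 26.7% of the log2 rise in Scr cells. At day 9 it was 2.01-fold lower in shRunx2 cells.

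Adgrf5, the adhesion receptor, was at 7.65, 7.73 and 7.73 on the day 0 arrays and at 9.07, 9.02 and 8.86 in Scr at day 9. It was at 8.16 on each of the 3 shRunx2 arrays. These last 3 values were identical to every deposited decimal, as were the 3 shRunx2 values of 383 of the 19937 genes (1.92%), so they carry no estimate of the spread between cultures. The fit pools the spread over all groups. The rise with differentiation was 1.28 ± 0.051 (SE), or 2.43-fold (limma, adjusted p = 6.15e-09). In shRunx2 cells the gene lay 0.45 ± 0.051 above Scr day 0, or 1.37-fold (limma, adjusted p = 2.8e-05), which equals 35.4% of the log2 rise in Scr cells. At day 9 its level was 1.78-fold lower than in Scr cells. Of the endothelial markers beside which Adgrf5 is best known, Pecam1 averaged 7.48, 7.51 and 7.56 in the 3 groups and Cdh5 8.22, 8.16 and 8.25, and neither passed the test in any comparison with Scr at day 9. Flt1, a receptor for vascular endothelial growth factor, was the 1 of 10 that passed, at 0.44 for differentiation and -0.22 for knockdown.

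Mid2, the ubiquitin ligase whose promoter window holds the Runx core, was at 8.74, 8.68 and 8.66 on the day 0 arrays, at 9.58, 9.30 and 9.36 in Scr at day 9, and at 8.44, 8.34 and 8.35 in shRunx2. All shRunx2 arrays were below all day 0 arrays, by 0.22 between the nearest. It rose by 0.72 ± 0.064 (SE) with differentiation, or 1.64-fold (limma, adjusted p = 4.74e-06). In shRunx2 cells it lay 0.32 below day 0 instead, a fold of 1.25 (difference -0.32 ± 0.064, limma, adjusted p = 0.00202). The day 9 difference, 2.05-fold lower in shRunx2 cells, was the greatest of the 6. There were 39 genes at least 1.5-fold lower in shRunx2 than in Scr at day 9. Of these, 4 rose in Scr cells and lay below Scr day 0 in shRunx2 cells, namely Mid2, Cacna2d1, Megf9 and Tspan5. Another 19 rose in Scr cells and lay above Scr day 0 in shRunx2 cells. These counts share their day 9 arrays with the contrast that defined the 39.

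Pdlim1, the stress fiber adaptor, was at 11.93, 11.79 and 11.96 on the day 0 arrays, at 11.89, 11.89 and 11.82 in Scr at day 9, and at 11.02, 11.03 and 11.09 in shRunx2. The Scr groups overlapped and the shRunx2 arrays stood 0.70 below the lowest of day 0. Between day 0 and day 9 in Scr cells it differed by -0.029 ± 0.049 (SE; limma, adjusted p = 0.732). In shRunx2 cells it was 0.85 ± 0.049 below day 0 (difference -0.85), or 1.80-fold (limma, adjusted p = 1.02e-07), and 1.77-fold below Scr at day 9. A second probe set of the gene read 11.34, 11.24 and 11.34 at day 0, 11.19, 11.19 and 11.14 in Scr at day 9, and 10.39, 10.33 and 10.37 in shRunx2. The day 9 difference between shRunx2 and Scr was alike in the 2 probe sets, -0.82 and -0.81, whereas the difference between day 9 and day 0 in Scr cells was -0.13 in the second one and passed the test there (limma, adjusted p = 0.0226).

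Hs3st3a1, the heparan sulfate 3-O-sulfotransferase, was at 8.63, 8.44 and 8.44 on the day 0 arrays, at 8.39, 8.38 and 8.17 in Scr at day 9, and at 7.38, 7.47 and 7.64 in shRunx2. The Scr groups were 0.05 apart at their nearest arrays, and the shRunx2 arrays lay 0.53 below the lowest of them. The difference between day 9 and day 0 in Scr cells was -0.19 ± 0.080 (SE; limma, adjusted p = 0.0975). In shRunx2 cells it was -1.01 ± 0.080 relative to day 0, a 2.01-fold lower level (limma, adjusted p = 1.63e-06), and the level at day 9 was 1.76-fold lower than in Scr cells. Pdlim1 and Hs3st3a1 were the only 2 of the 39 genes lower by at least 1.5-fold in shRunx2 cells for which the Scr change from day 0 to day 9 did not pass the test. Of the other 37, 22 were at least 1.5-fold higher and 9 at least 1.5-fold lower at day 9 than at day 0, beside 2.89% and 2.25% of all genes. These counts are not independent of the choice of the 39, because both comparisons use the same Scr day 9 arrays.

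**Figure D2:**
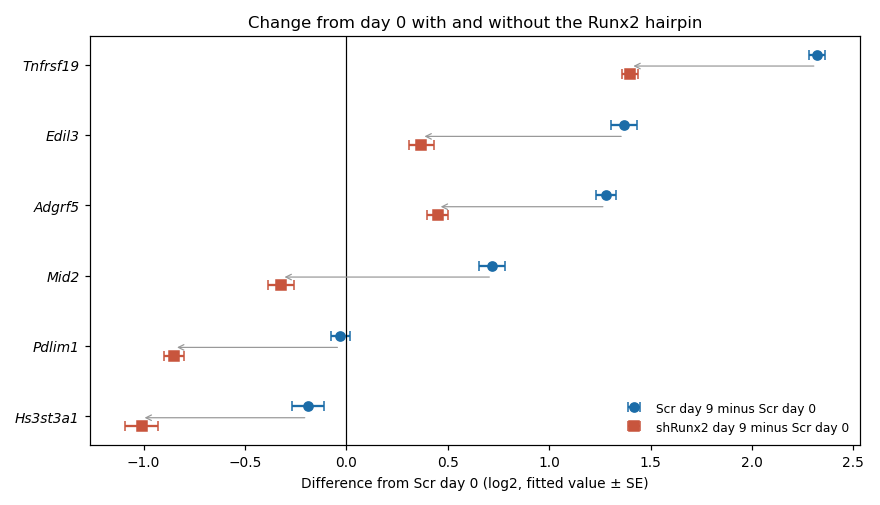
Difference from Scr day 0 (log2, fitted value with its SE) for Scr day 9 (blue circles) and shRunx2 day 9 (red squares), with an arrow from the first to the second for each of the 6 genes. The arrows of Tnfrsf19, Edil3 and Adgrf5 end above 0, at 1.40, 0.37 and 0.45, and those of Mid2, Pdlim1 and Hs3st3a1 end below it, at -0.32, -0.85 and -1.01.

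All 6 genes had every shRunx2 array below every Scr day 9 array, which was also the case for 15.3% of all genes, while 0.196% of all genes were at least 1.5-fold lower with an adjusted p under 0.05. Nothing is read from this, since the genes were chosen on that contrast. The fitted differences ranged from -1.04 to -0.82, with SEs of 0.040 to 0.080, whereas their changes with differentiation ran from -0.19 to 2.32. In the order by size, Mid2 and Edil3 (-1.04 and -1.01) differed by less than their SE, as did Adgrf5, Pdlim1 and Hs3st3a1 (-0.83, -0.82 and -0.82).

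The genes with the most similar course over the 9 arrays were found by the root mean square difference between profiles centred on their own mean. For Tnfrsf19 these were Nt5e (0.173), Acpp (0.178) and Selenop (0.184), which encode a surface nucleotidase, an acid phosphatase and a selenium transport protein. They differed by 2.18, 2.35 and 2.04 with differentiation, near the 2.32 of Tnfrsf19. After knockdown they differed by -0.56, -0.60 and -0.51. Tnfrsf19 differed by -0.92, but it was chosen for a low value there, so nothing is read from its larger difference. For Adgrf5 they were the secreted protease gene Htra1 (0.0906), Alpl, tissue-nonspecific alkaline phosphatase (0.0915), and Renbp (0.0979). Alpl differed by 1.39 with differentiation and -0.75 after knockdown, against 1.28 and -0.83 for Adgrf5. Edil3 was nearest to Adgrf5 itself (0.108), then to Htra1 (0.138) and Lrrtm2 (0.144). For Mid2 they were Slc26a7 at 0.144, Tcn2 at 0.198 and Tspan5 at 0.203. Pdlim1 and Hs3st3a1 were near each other (0.111), and Khsrp, an RNA-binding protein gene, was near both (0.0936 and 0.127). Sel1l (0.141) was the third for Pdlim1 and Entpd7 (0.125) the second for Hs3st3a1. The 9 arrays include those on which the genes were chosen, so nearness among the chosen genes is partly set by that choice.

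The relatives and partners of each gene were then examined, in the comparison of shRunx2 with Scr at day 9, in which 2.73% of all genes were higher and 4.66% lower at an adjusted p under 0.05, with a median of -0.0041. Of 27 other members of the TNF receptor superfamily, 2 were higher and 3 lower, with a median of 0.019. With differentiation 2 rose and 10 fell, with a median of -0.032, against 14.5% and 17.1% of all genes. Tnfrsf21 (death receptor 6) moved like Tnfrsf19 in both comparisons. Its level was 9.55, 9.65 and 9.64 at day 0, 11.34, 11.33 and 11.27 in Scr at day 9, and 10.61, 10.78 and 10.76 in shRunx2. It rose by 1.70 ± 0.049 (limma, adjusted p = 4.24e-10) and was lower in shRunx2 cells by 1.51-fold (difference -0.60 ± 0.049, limma, adjusted p = 2.48e-05). Tnfrsf11b (osteoprotegerin, the decoy receptor for the osteoclast factor RANKL) moved the other way, with -0.88 for differentiation and 0.45 for knockdown (limma, adjusted p = 0.000209). Its arrays read 10.23, 10.24 and 10.07 in Scr at day 9 and 10.60, 10.63 and 10.63 in shRunx2, without overlap. Tnfrsf14 was higher by 0.24 and Tnfrsf23 lower by a difference of -0.22 in shRunx2 cells, whereas Eda2r (-0.22, limma, adjusted p = 0.0493) passed in only 7 of 17 alternative settings. Of 7 adaptor, co-receptor and kinase partners of Tnfrsf19, Mapk8 (the kinase JNK1) was the 1 that passed, at -0.25 (limma, adjusted p = 0.0151, and in 12 of 17 alternative settings).

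Mid1, the closest relative of Mid2 and the gene of X-linked Opitz syndrome in humans, moved opposite to Mid2 after knockdown. It was at 11.06, 11.06 and 11.09 at day 0, at 11.25, 11.26 and 11.17 in Scr at day 9, and at 11.63, 11.61 and 11.59 in shRunx2, with no overlap between any of the groups. The increase in shRunx2 over Scr cells was 0.38 ± 0.037, or 1.30-fold (limma, adjusted p = 7.88e-05). It was in the same direction as its rise of 0.16 with differentiation (limma, adjusted p = 0.00541). Igbp1, the PP2A regulator that binds both Mid proteins, differed by 0.36 with differentiation and by -0.21 after knockdown (limma, adjusted p = 0.0463, and in 9 of 17 alternative settings). The other 9 of 11 related TRIM and PP2A genes did not pass after knockdown, and the median of the 11 was 0.033.

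Of 7 genes for the paralog of Edil3, its integrin receptors and other RGD ligands, 4 were lower in shRunx2 cells, with a median of -0.19. Itgb3, the beta3 subunit of the vitronectin receptor, was at 9.73, 9.76 and 9.72 at day 0, at 10.24, 10.26 and 10.12 in Scr at day 9, and at 9.95 on all 3 shRunx2 arrays. It thus rose with Edil3 by 0.47 ± 0.041 (limma, adjusted p = 4.23e-06) and was lower after knockdown (difference -0.25 ± 0.041, limma, adjusted p = 0.00343). Itgb5, the beta5 subunit, showed the same course at 0.30 and -0.19 (limma, adjusted p = 0.0077 for the latter). Itgav, the alpha subunit that pairs with both, fell with differentiation (-0.37) and differed by 0.043 after knockdown (limma, adjusted p = 0.612). Mfge8, the paralog of Edil3, fell with differentiation (-0.56) and was lower again after knockdown, at -0.22 (limma, adjusted p = 0.0118, and in 15 of 17 alternative settings). Ibsp, the bone sialoprotein gene and itself a mineralization gene, had the greatest change on the list, 3.76 and -1.12.

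**Figure D3:**
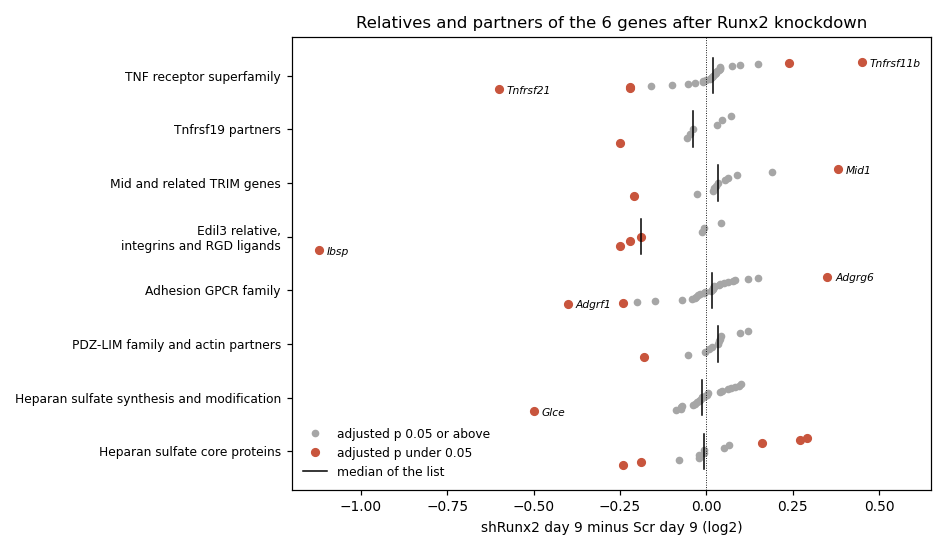
Difference between shRunx2 and Scr at day 9 (log2) for each analysed relative or partner of the 6 genes, by list. Red points have an adjusted p under 0.05, gray points do not, and the black bar is the median of a list, which lies between -0.039 and 0.034 in all lists but that of the integrins and RGD ligands (-0.19).

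Of 27 other adhesion G protein-coupled receptors, 1 was higher and 2 were lower in shRunx2 cells, with a median of 0.015. Adgrf1, of the same subfamily as Adgrf5, was at 7.08, 7.01 and 7.07 at day 0, at 7.68, 7.60 and 7.66 in Scr at day 9, and at 7.28, 7.24 and 7.22 in shRunx2. The 3 groups did not overlap and stood in the same order as for Adgrf5. All these values were low, below the array medians of 8.416 to 8.51. The rise was 0.60 ± 0.038 (limma, adjusted p = 2.92e-07) and the difference after knockdown -0.40 ± 0.038 (limma, adjusted p = 7.57e-05). Adgrg6 (GPR126, a collagen-binding receptor) was higher both at day 9 (0.38) and after knockdown (0.35, limma, adjusted p = 0.000213). Adgra3 was lower after knockdown, at -0.24 (limma, adjusted p = 0.00629), with 0.0064 for differentiation (limma, adjusted p = 0.941).

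The other PDZ-LIM genes and the alpha-actinins did not follow Pdlim1. Of 11, 1 was lower in shRunx2 cells, with a median of 0.034. Pdlim5 was that gene, at 12.01, 12.02 and 11.99 in Scr at day 9 and 11.83, 11.93 and 11.74 in shRunx2 (difference -0.18, limma, adjusted p = 0.0426), and it passed in only 6 of 17 alternative settings. Pdlim2, Pdlim3, Pdlim4, Pdlim7 and Ldb3 had differences of 0.097, 0.007, 0.038, 0.036 and 0.12, none of which passed. With differentiation, by contrast, 6 of the 11 fell and 1 rose (17.1% and 14.5% of all genes), with a median of -0.30 against -0.016 over all genes. Ldb3 (-0.74), Pdlim7 (-0.68), Actn1 (-0.46) and Actn4 (-0.37), which encode proteins of Z-discs and stress fibers, fell, and Pdlim2 rose by 0.25.

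Heparan sulfate enzymes other than Hs3st3a1 also changed little after knockdown, with 1 of 22 lower and a median of -0.012. That 1 was Glce, the C5-epimerase that converts glucuronic to iduronic acid in the chain. It was at 10.63, 10.52 and 10.50 at day 0, at 10.22 on all 3 Scr day 9 arrays, and at 9.75, 9.68 and 9.72 in shRunx2. It fell with differentiation (-0.33 ± 0.042, limma, adjusted p = 7.35e-05) and was lower again after knockdown (-0.50 ± 0.042, limma, adjusted p = 2.48e-05). Hs3st3b1, which makes the same modification and lies next but one to Hs3st3a1 on chromosome 11, differed by -0.018 and -0.038, and its shRunx2 arrays of 9.05, 9.09 and 8.95 overlapped the Scr day 9 arrays of 9.03, 9.09 and 9.08. With differentiation, 8 of the 22 fell and 1 rose (17.1% and 14.5% of all genes), and the 8 became 6 to 10 in the alternative settings. Among 12 core proteins that carry heparan sulfate, 3 were higher and 2 lower after knockdown. Gpc1, a glypican, differed by -1.08 with differentiation and 0.29 after knockdown (limma, adjusted p = 0.000363), Agrn (agrin) by 0.50 and 0.27, Sdc1 (syndecan-1) by 0.067 and -0.24, and Sdc3 by -0.74 and -0.19. Gpc4, at 0.16, passed in only 6 of 17 alternative settings.

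**Figure D4:**
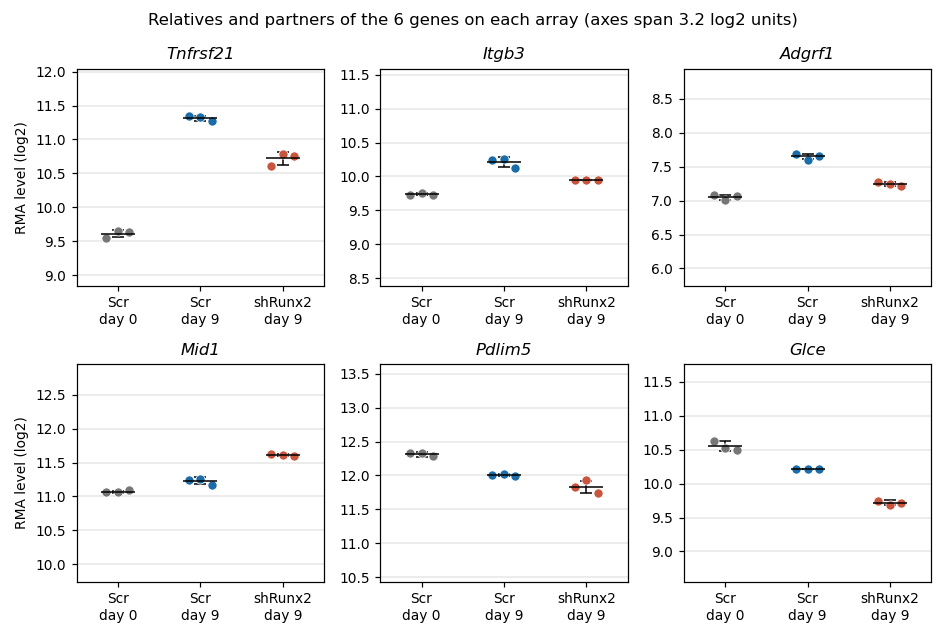
RMA level (log2) on each of the 9 arrays for 6 relatives or partners, with the group mean and SD as bars (n = 3) and axes spanning 3.2 log2 units. Tnfrsf21, Itgb3 and Adgrf1 rise at day 9 and are lower in shRunx2 cells, Mid1 is highest in shRunx2 cells, and Glce is lower in both comparisons. Pdlim5 is lower in both too, but after knockdown it passed in only 6 of 17 alternative settings.

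The position of the 6 genes was examined last, through the 5 nearest analysed protein-coding genes on each side in RefSeq order, a choice made after values had been seen. The 6 lie on chromosomes 14, X, 13, 17, 19 and 11. Of the 60 neighbours, 9 were lower and 2 higher after knockdown at an adjusted p under 0.05 (background 4.66% and 2.73%). The 9 were unevenly spread, with 4 beside Adgrf5, 2 each beside Tnfrsf19 and Pdlim1, and 1 beside Hs3st3a1. Pla2g7, Ebpl, Tctn3 and Elac2 passed in 11, 10, 10 and 15 of 17 alternative settings and the other 5 in all that were run. Beside Adgrf5 they were Adgrf1 and Tnfrsf21, its nearest neighbours on one side and described above, and Cyp39a1 and Pla2g7 on the other. Cyp39a1, an oxysterol hydroxylase, read 10.21, 10.16 and 10.22 in Scr at day 9 and 9.82, 9.81 and 9.77 in shRunx2 (difference -0.39, limma, adjusted p = 0.000928). Adgrf2, Adgrf4, Cd2ap, Mep1a, Tdrd6 and Slc25a27 in the same stretch did not pass after knockdown. Tnfrsf21 and Adgrf1 both rose with differentiation and were lower after knockdown, as Adgrf5 was. Thus 3 adjacent analysed genes on chromosome 17 shared a course, with Adgrf1 below the array medians throughout. Pla2g7 (-0.56) fell with differentiation and Cyp39a1 (0.084) did not pass.

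Beside Tnfrsf19, Mipep, a mitochondrial peptidase gene, took the same course at a smaller size. It was at 8.98, 8.87 and 8.79 at day 0, at 9.80, 9.75 and 9.73 in Scr at day 9, and at 9.45, 9.43 and 9.49 in shRunx2. The rise was 0.88 ± 0.048 and the difference after knockdown -0.30 ± 0.048 (limma, adjusted p = 0.00263). Beside Pdlim1, Aldh18a1, a proline synthesis enzyme, was lower both at day 9 (-0.46) and after knockdown (-0.29, limma, adjusted p = 0.000589). The nearest neighbours of the remaining genes differed little after knockdown, with Tsc22d3 at 0.15 (limma, adjusted p = 0.0464, 0.064 with a replicate block, and passing in only 6 of 17 alternative settings) and Tex13b at -0.0025 for Mid2, and Rasa1 at -0.13 and Hapln1 at -0.046 for Edil3. Beside Hs3st3a1, Cdrt4 was higher by 0.54 (limma, adjusted p = 0.00111) and Elac2 lower by a difference of -0.16 (limma, adjusted p = 0.0166).

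**Figure D5:**
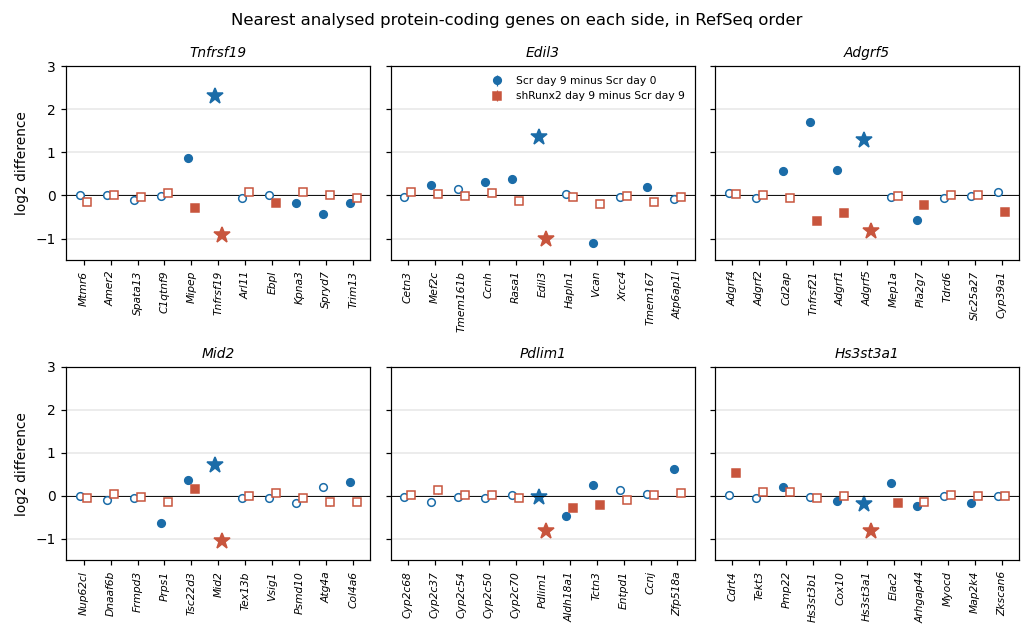
Log2 differences with SE for the 5 nearest analysed protein-coding genes on each side of the 6 genes (stars), with differentiation in blue circles and knockdown in red squares, filled where the adjusted p is under 0.05 and open otherwise; stars carry no test. Next to Adgrf5, Tnfrsf21 (1.70 and -0.60) and Adgrf1 (0.60 and -0.40) move in the same directions as Adgrf5.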

How the data were processed

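Affymetrix Mouse Gene 1.0 ST arrays measured total RNA of 9 cultures. Per the labels and the study's methods, the authors made the deposited log2 values with RMA, which corrects background, quantile-normalizes and summarizes probes by median polish. The study's methods name a filtering step after RMA, but its criterion and the probe annotation build are not given in the sources used here. The table held 34760 probe sets. Of these, 21640 had 1 gene symbol, 1321 had several and 11799 had none. A gene with several probe sets (954 genes) was represented by the one with the highest mean, leaving 19937 genes.

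limma 3.58.1 in R 4.3.3 (lmFit, eBayes) was fitted to 3 group means over all 9 arrays, with Benjamini-Hochberg adjustment over the 19937 genes and a threshold of 0.05. Where a fold is required it is 1.5. The fit was tested on simulated data. An exact permutation test of 3 against 3 arrays cannot fall below 0.10, so none is given. Columns of values for no known sample numbered 0.

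The members and gene lists were chosen with earlier results of these data known. Beyond the members, genes were named as follows: those ranked next to the members, the 3 most similar profiles, up to 4 genes a list with the smallest adjusted p in each comparison, and the direct paralogs. Others were named after their values were seen. The alternatives changed the arrays fitted, a replicate block, scaling, a filter on dim genes, the probe sets tested, array weights, the variance model and the arrays left out. Protein sequences were not used here. Biological replicates are labelled, but p-values measure only the spread between these cultures.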

Additional observations from a re-analysis of the deposited data

How the results depend on the processing

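For the 6 genes in the 2 comparisons with day 0, 199 of 200 alternative values stayed on their side of the threshold and 198 kept their sign. The exceptions were all Pdlim1 in Scr day 9 minus day 0, which was -0.13 and passed with its second probe set, and was 0.021 with array weights and 0.0054 without Scr day 0 replicate 3, neither of which passed. Mid2, Adgrf5 and Hs3st3a1 were not above the median level of all genes, so the fit limited to such genes did not include them. They had 16 alternative values in each comparison with day 0, against 17 for Tnfrsf19 and Edil3. The untested difference between shRunx2 and Scr at day 9 kept its sign in 100 of 100. The other alternatives mainly moved counts. With all 34760 probe sets tested, named or not, the counts are of probe sets and cannot be set against counts of genes directly. Then 992 probe sets (576 genes before) were at least 1.5-fold higher in Scr day 9 than day 0, 1210 (580 genes) in shRunx2 day 9 than Scr day 0 and 138 (79 genes) in shRunx2 than Scr at day 9, and 590 were lower in shRunx2 than in Scr at day 9. Over the same 19937 genes, with p adjusted over all probe sets, 497 were lower there. The main count of lower genes was 930, and 1673 with array weights, which also raised the higher calls from 544 to 917. Without 1 array it ran from 503 to 960, with 503 without Scr day 9 replicate 2, 562 without Scr day 9 replicate 1 and 507 without shRunx2 replicate 1. The higher calls ran from 355 to 542, with 355 without Scr day 9 replicate 2. Centring arrays on their medians raised genes lower in shRunx2 than at day 0 from 4063 to 6136. It moved the share of higher calls from 45.9% to 34.0% (day 9 over day 0), from 40.4% to 24.8% (shRunx2 over day 0) and from 36.9% to 26.7% (shRunx2 over Scr).

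Counts in the gene lists moved by 1 or 2 genes. With differentiation, 1 TNF receptor gene in place of 2 was higher after centring, after renewed quantile normalization and with every probe set, and 1 partner of Tnfrsf19 in place of 2 was lower with only the 2 groups or with every probe set. Leaving out 1 array gave 1 to 2 in both. Among genes above the median level, 3 adhesion receptors were higher and 1 lower, and with array weights 2 heparan sulfate enzymes were higher. After knockdown, the count of lower genes became 0 with every probe set for the partners of Tnfrsf19, the Mid and TRIM genes and the PDZ-LIM genes, the last also with only the 2 groups or renewed quantile normalization. It ran from 0 to 1 in these 3 lists without 1 array. Higher adhesion receptors numbered 2 with only the 2 groups and 1 to 2 without 1 array. The causes were not tested.

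Between the 2 Scr groups, deviations of same-numbered arrays correlated at 0.294, 0.0823 and 0.285, and those of differently numbered arrays at -0.293 to 0.11. Same-numbered arrays of shRunx2 and either Scr group correlated at -0.114 to 0.129. A pairing of the Scr arrays by number is therefore possible, and the main fit did not use it. With the replicate number as a block, 543 genes were higher and 907 lower in shRunx2 than in Scr at day 9, and no call of the 6 genes changed. Of the other genes named, Tsc22d3 no longer passed (adjusted p = 0.064). With 3 arrays a group, small differences are limited by precision, and a lone pair of arrays is assumed to vary like the other groups. Between 291 and 383 genes a group had identical values on all 3 arrays, so their SD of 0 understates the spread.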
